A study of Mus musculus with 3 samples.

Results

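The 10 genes described here are a group of secreted inflammatory proteins: the CC chemokines Ccl2, Ccl3, Ccl4, Ccl7 and Ccl12, the CXC chemokines Cxcl10 and Cxcl12, and the cytokines Il1a, Il1b and Tnf. They were taken by symbol from the 33696 genes of the deposited count matrices, and all 10 were found. Their levels were read in microglia, macrophages and monocytes, neutrophils and endothelial cells (ECs), with rods as the reference for stray RNA.

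Chemokines are small secreted proteins that draw leukocytes towards their source through G protein-coupled receptors, and the names CC and CXC describe the spacing of their first cysteines. Interleukin-1 and tumour necrosis factor are early cytokines of the innate immune response that switch on inflammatory genes in neighbouring cells, ECs among them. In the postnatal retina, microglia lie along the growing vessel plexus, and the Norrin/β-catenin pathway, in which Tspan12 is a co-receptor and Ctnnb1 encodes β-catenin, acts in ECs to shape that plexus and its barrier.

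Single-cell RNA sequencing was performed on P6 mouse retinas from 3 libraries, 1 for each genotype: wild type (WT), Tspan12 knockout (Tspan12 KO) and Ctnnb1 conditional knockout (Ctnnb1 cKO). The WT mice had neither deletion, and the Tspan12 knockout was not restricted to a cell type. In the Ctnnb1 cKO mice a floxed Ctnnb1 was deleted by Pdgfb-iCreERT, a tamoxifen-inducible Cre driven by a promoter that is active in ECs, after daily tamoxifen in the first days of life. The strain was C57BL/6 throughout, each library pooled the retinas of several mice, the WT mice came from other litters than the mutants, and cells were enriched with CD31 and CD11b beads. Whether WT mice were given tamoxifen is not given in the sources used here. With 1 library per genotype, a difference between genotypes and one between libraries cannot be told apart. No p-value is given, and each 95% interval covers counting error only.

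The libraries held 9951 (WT), 14426 (Tspan12 KO) and 9151 (Ctnnb1 cKO) barcodes, with a median of 4974, 3166 and 2790 unique molecular identifiers (UMIs) per barcode, and 30172 cells in all were kept. Any pair of libraries shared few barcodes, 94 in total. In ECs the targeted genes were still counted: Tspan12 stood at 95.9 CPM (UMIs of the gene per 1000000 UMIs of the cell class) in WT, 84.2 for the Tspan12 KO library and 40.2 for Ctnnb1 cKO, the lowest of them, and Ctnnb1 stood at 523, 616 and 443 CPM. A count of 3′ ends does not read a deletion elsewhere in the gene, so these values do not check the labels. Microglia were 282 cells in WT (3.14% of the library), 364 in the Tspan12 KO (2.86%) and 2025 in the Ctnnb1 cKO (24.0%), and all 9 microglial markers were detected in each library. ECs numbered 537, 291 and 2713, with 9 of 9 endothelial markers detected. The macrophage and monocyte cluster held 6, 22 and 397 cells, in which 5, 7 and 9 of its 10 markers were detected. It was led by Mrc1, F13a1, Pf4 and Lyve1 and had 1 UMI of the monocyte receptor Ccr2. Its name therefore does not show that it holds monocytes. The neutrophil cluster held 23, 2 and 106 cells. The 2 Tspan12 KO cells of that cluster had none of the 9 neutrophil markers, so they are not described as neutrophils.

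Several of the 10 genes are neighbours in the genome. In the RefSeq annotation, Ccl2, Ccl7 and Ccl12 lie next to each other on chromosome 11 with Ccl11 before Ccl12, and Ccl3 is followed by Ccl4 on the same chromosome. Il1a and Il1b are adjacent on chromosome 2, Tnf lies between Ltb and Lta on chromosome 17, Cxcl10 is on chromosome 5 and Cxcl12 on chromosome 6. RefSeq promoter sequences (build GRCm38.p6) were matched for 7 of the 10 genes, and not for Ccl2, Ccl4 and Ccl7. Of the 7, 4 are printed because these genes carry differences described below: Tnf in Tspan12 KO microglia, Ccl12 and Il1b in Ctnnb1 cKO microglia, and Cxcl10 in Ctnnb1 cKO ECs and interferon-rich microglia. Ccl7 had a larger ratio than these in Ctnnb1 cKO microglia and ECs, but no sequence. Each is the window of 200 bases before the gene's start, 5′ to 3′ on the gene's own strand. Capitals mark matches to any of 4 motifs searched on both strands: an NF-κB motif (GGG, any 3 bases, then TTCC), an interferon response motif (GAAA, any 2 bases, then GAAA), an AP-1 motif (TGANTCA) and a TATA box (TATAAA). Of 32851 windows of this length, 3.91% hold the NF-κB motif, 2.27% the interferon response motif, 5.48% the AP-1 motif and 9.96% the TATA motif.
Cxcl10 (chr5:92348890-92349089, minus strand): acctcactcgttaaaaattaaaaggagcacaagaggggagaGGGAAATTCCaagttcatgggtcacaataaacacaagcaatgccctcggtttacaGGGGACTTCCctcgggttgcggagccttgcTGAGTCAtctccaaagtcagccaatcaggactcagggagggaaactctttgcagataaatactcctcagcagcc
Tnf (chr17:35202008-35202207, minus strand): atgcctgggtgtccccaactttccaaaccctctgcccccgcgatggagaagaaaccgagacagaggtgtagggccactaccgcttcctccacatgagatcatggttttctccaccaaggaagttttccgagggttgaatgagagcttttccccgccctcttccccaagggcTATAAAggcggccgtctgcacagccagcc
Il1b (chr2:129371140-129371339, minus strand): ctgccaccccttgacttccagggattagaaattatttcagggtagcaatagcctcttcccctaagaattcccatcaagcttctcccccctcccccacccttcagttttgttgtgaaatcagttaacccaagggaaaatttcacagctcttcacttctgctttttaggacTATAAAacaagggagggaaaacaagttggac
Ccl12 (chr11:82101645-82101844, plus strand): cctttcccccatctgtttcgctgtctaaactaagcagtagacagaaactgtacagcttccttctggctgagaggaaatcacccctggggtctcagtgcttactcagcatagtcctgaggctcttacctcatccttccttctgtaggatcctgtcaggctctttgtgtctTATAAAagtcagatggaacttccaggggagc

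The Cxcl10 window holds 2 NF-κB matches, 159 to 150 and 104 to 95 bases before the start, and an AP-1 match at 74 to 68. The Tnf, Il1b and Ccl12 windows each hold the TATA motif, 24 to 31 bases before the start. Among the windows not printed, that of Il1a holds the TATA motif and an AP-1 match, and those of Ccl3 and Cxcl12 hold none of the 4. A match describes the letters of the window only.

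Levels were compared as CPM of a cell class, summed over its cells. Because the assay counts the 3′ end of each transcript once, these values are not divided by transcript length and can be set side by side between genes. In WT microglia the order from high to low was Ccl4, Ccl3, Ccl2, Il1a, Ccl12, Tnf, Il1b, Cxcl10, Ccl7 and Cxcl12. Ccl4 and Ccl3, the macrophage inflammatory proteins, led in every library. Ccl4 stood at 3914 CPM in WT (95% Poisson interval 3839 to 3990), 3619 in the Tspan12 KO (3546 to 3692) and 4140 in the Ctnnb1 cKO (4093 to 4188). Ccl3 stood at 2732, 2492 and 2324. For this pair the 3 libraries lay close together, within 0.23 on the log2 scale of WT. In the WT order only Il1b (128.9 to 158.1) and Cxcl10 (115.7 to 143.4) were neighbours whose intervals overlapped.

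The ligands of Ccr2, the receptor by which monocytes leave the blood, varied more. Ccl2 stood at 827 CPM in WT, 524 in the Tspan12 KO and 1198 in the Ctnnb1 cKO microglia. Ccl12 stood at 333, 299 and 1119. Ccl7 was the lowest of the CC chemokines at 23.4, 19.6 and 122.8 CPM, from 62, 52 and 879 UMIs. All of these were highest in the Ctnnb1 cKO library, by an interval that did not meet that of WT.

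The cytokines did not share 1 pattern. Il1a, the cell-associated form of interleukin-1, stood at 598 CPM in WT, 374 in the Tspan12 KO and 377 in the Ctnnb1 cKO microglia. Il1b, the form that is cleaved by inflammasomes before release, stood at 143, 136.6 and 379. Il1a was thus highest in WT, where Il1b was not, although the genes are adjacent. Tnf stood at 272 CPM in WT (252.5 to 292.6), 103.4 in the Tspan12 KO (91.5 to 116.4) and 423.5 in the Ctnnb1 cKO (408.6 to 438.9), so that none of the 3 intervals met.

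Of the CXC chemokines, Cxcl10, an interferon-induced ligand of Cxcr3, stood at 129 CPM in WT, 81.9 in the Tspan12 KO and 205 in the Ctnnb1 cKO microglia. Cxcl12, the ligand of Cxcr4, was close to absent from microglia, with 1 UMI in WT, 1 in the Tspan12 KO and 23 in the Ctnnb1 cKO. It is the only one of the 10 genes that was higher in ECs than in microglia in each library.

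**Figure D1:**
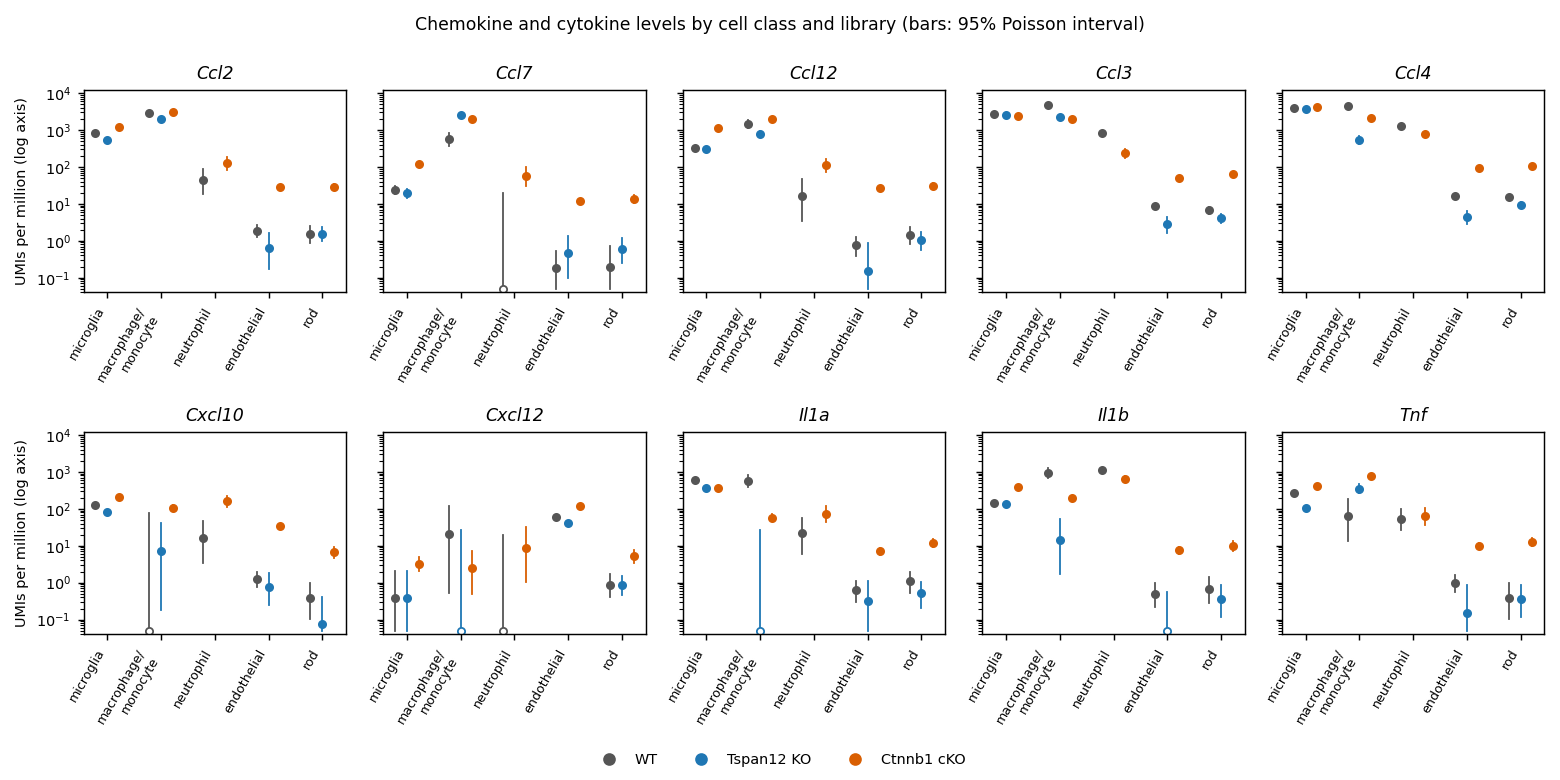
Level of each of the 10 genes in CPM (log axis) in microglia, macrophages and monocytes, the neutrophil cluster, ECs and rods, with 1 point per library and bars for the 95% Poisson interval. Open circles at the axis floor mark 0 UMIs, and the 2 Tspan12 KO cells of the neutrophil cluster are not drawn. Ccl4 in microglia stayed between 3619 and 4140 in all 3 libraries, whereas Ccl7 was highest in macrophages and Cxcl12 in ECs.

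Differences between mutant and WT microglia were taken as the log2 ratio of these summed levels. A gene was called when it had at least 50 UMIs over both libraries, the log2 ratio was 1 or more in size and the 95% interval left out 0. Cxcl12 had too few UMIs, so 9 of the 10 genes could be read. In Tspan12 KO microglia Tnf was the only call, lower by a log2 ratio of −1.40 (95% interval −1.60 to −1.19), from 274 UMIs against 721 in WT. No gene of the 9 was called higher. Over all 8787 genes with enough UMIs, 1.51% were called lower and 1.91% higher, and the median log2 ratio was 0.08 against −0.25 over the 9 members.

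The other differences in Tspan12 KO microglia were below 2-fold. Il1a had a log2 ratio of −0.68 (−0.79 to −0.56), Ccl2 of −0.66 (−0.76 to −0.56) and Cxcl10 of −0.66 (−0.91 to −0.41). Ccl12, Ccl3 and Ccl4 lay between −0.15 and −0.11, and the intervals of Ccl7 and Il1b held 0. The size of the Tnf difference depended on how cells were weighted: it was −0.97 when every cell counted equally and −0.73 when each cell was thinned to 2000 UMIs, both short of the call. With thinning, Cxcl10 was called in place of Tnf.

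In Ctnnb1 cKO microglia 3 of the 9 genes were called higher and none lower, beside 9.10% higher and 7.46% lower over all 10393 genes read. Ccl7 had a log2 ratio of 2.39 (2.02 to 2.79), Ccl12 of 1.75 (1.65 to 1.85) and Il1b of 1.41 (1.25 to 1.57). Ccl7 and Ccl12 are monocyte-recruiting chemokines, and Il1b is an inflammasome product. Cxcl10 (0.67), Tnf (0.64) and Ccl2 (0.53) were above WT by less than 2-fold with intervals above 0. Ccl4 was at 0.08 (0.05 to 0.11), Ccl3 at −0.23 (−0.27 to −0.19) and Il1a at −0.67 (−0.76 to −0.57). The median of the 9 was 0.64, and that of all genes read was 0.06. When every cell counted equally, Ccl2, Tnf and Cxcl10 were called as well, which made 6.

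The microglia of the libraries fell into different clusters, although the 10 genes and the other ligands, receptors and cytokines had been left out of clustering. Of the Ctnnb1 cKO microglia, 1740 of 2025 were in cluster 6, which held 5 WT and 12 Tspan12 KO cells. Most WT and Tspan12 KO microglia (168 and 256) were in cluster 20, which held 17 Ctnnb1 cKO cells. Within cluster 20 none of the 3 calls in Ctnnb1 cKO was made: Ccl12 was at 0.37 (−0.08 to 0.78), Il1b at 0.27 (−0.44 to 0.91) and Ccl7, on 2 UMIs, at −0.64 (−3.71 to 1.28). Cxcl10 was the only call there, lower on 4 UMIs in Ctnnb1 cKO, with a log2 ratio of −2.06 (−3.94 to −0.69). The Ctnnb1 cKO levels therefore describe cluster 6, which is almost wholly 1 library, and the state of those cells, their genotype and their library cannot be told apart. For Tspan12 KO against WT, which share cluster 20, the Tnf ratio within it was −1.44 (−1.66 to −1.23) and Cxcl10 was also past 2-fold at −1.37 (−1.69 to −1.07).

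Cluster 25, led by Hmox1, Clec7a and Lgals3, held cells of every library (99 WT, 74 Tspan12 KO and 57 Ctnnb1 cKO) and few transcripts of the 10 genes. Its depth was low, with a median of 0.475 times the median UMIs of the cell's library. Ccl2 there was 44.8 CPM in WT and 252.7 in Ctnnb1 cKO, a log2 ratio of 2.49 (1.42 to 3.67) from 11 and 25 UMIs. Tnf (3 and 14 UMIs) and Cxcl10 (4 and 21 UMIs) were also higher in Ctnnb1 cKO, by 3.53 (1.69 to 5.97) and 3.70 (2.14 to 5.71). None of the 3 had the 50 UMIs needed for a call. Ccl4 did: it stood at 473 CPM in WT, 188 for Tspan12 KO and 899 for Ctnnb1 cKO (116, 28 and 89 UMIs). Within this cluster it thus met the call in Tspan12 KO, lower at −1.33 (−1.98 to −0.72), and was higher in Ctnnb1 cKO by 0.93 (0.51 to 1.34), short of it. In Ctnnb1 cKO the intervals of Ccl12 and Ccl3 held 0. In the low-depth microglial subcluster led by rod genes, described below, Cxcl10 had 9 UMIs in WT and 0 in Ctnnb1 cKO. Tnf had 3 UMIs in each there (11.4 and 65.3 CPM), and Ccl2 stood at 49.6 and 435.2 CPM. How far that subcluster and cluster 25 hold the same cells was not tested.

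**Figure D2:**
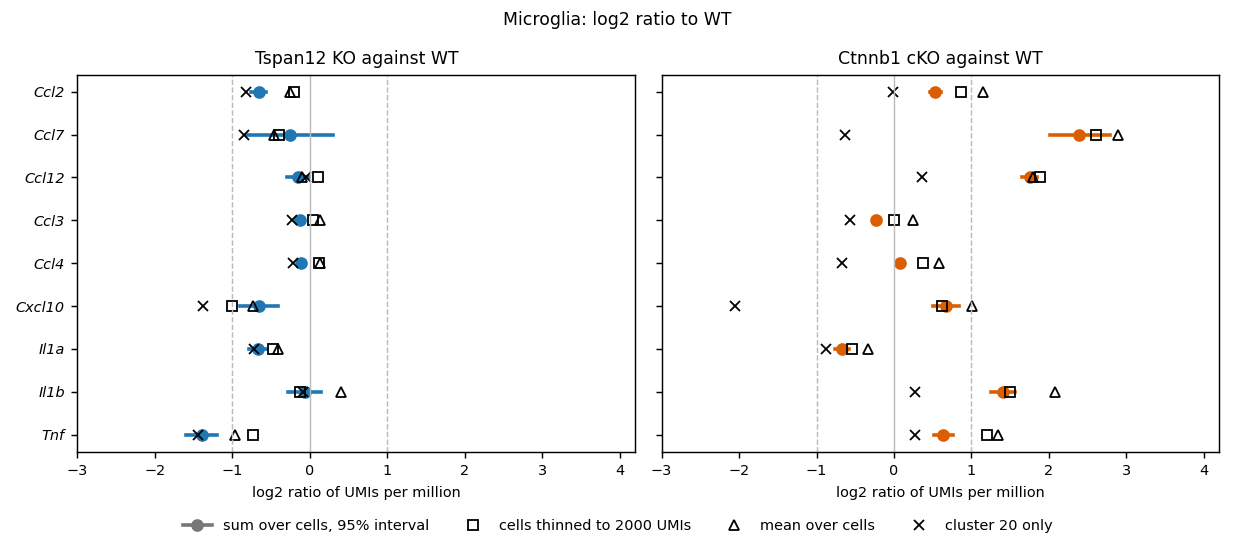
Log2 ratio of each gene in microglia, Tspan12 KO and Ctnnb1 cKO against WT, with the summed value and its 95% interval, the value at 2000 UMIs per cell (squares), the mean over cells (triangles) and the value within cluster 20 only (crosses). Dashed lines mark 2-fold. Ccl7, Ccl12 and Il1b of Ctnnb1 cKO lie beyond the upper line in the sum, at 2.39, 1.75 and 1.41, and at −0.64, 0.37 and 0.27 within cluster 20.

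The depth of microglia differed, with a median of 9682.5 UMIs per cell in WT, 7451.5 in the Tspan12 KO and 3099 in the Ctnnb1 cKO, so shares of cells with a UMI were compared after thinning each cell to 2000 UMIs. This left out 47, 53 and 307 shallower microglia. A low-depth microglial subcluster led by rod genes, described below, held 101 WT, 66 Tspan12 KO and 24 Ctnnb1 cKO cells before thinning. Each cell counts equally in a share, and the part of these cells in the shares was not tested. Ccl4 was found in 63.8% of WT microglia (Clopper-Pearson interval 57.3 to 70.0), 70.1% of Tspan12 KO (64.7 to 75.1) and 85.5% of the Ctnnb1 cKO (83.8 to 87.1). Without thinning the shares were 65.3, 69.5 and 87.0%. For 8 of the 10 genes the Ctnnb1 cKO share lay above that of WT with no overlap of the intervals, Ccl4 and Ccl3 among them, whose summed levels had hardly differed. Of the 7832 genes with at least 50 UMIs in these thinned cells, 11.6% had a share that lay higher in this way and 9.88% one that lay lower, and 9 of the 10 members were among the genes read. The exceptions were Il1a (43.8, 39.2 and 39.9%) and Cxcl12 (1 of 235 WT cells, 0 of 311 Tspan12 KO cells, which allows a share of up to 0.965%, and 12 of 1718 Ctnnb1 cKO cells).

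Rods, the neurons of dim-light vision, are not known to make these proteins, so their share was read as the stray RNA of each library. At 2000 UMIs Ccl4 was found in 3.72% of WT, 1.82% of Tspan12 KO and 16.0% of the Ctnnb1 cKO rods, whose unthinned median depths were 3410, 1901 and 1414 UMIs. The thinned rods numbered 1262, 1377 and 631, with 308, 1518 and 1034 left out. The share of stray Ccl4 was thus also highest in Ctnnb1 cKO, but microglia exceeded rods by far in each library. Ccl12 was found in 33.2, 32.8 and 61.9% of microglia and in 0.238, 0.218 and 5.55% of rods. Tnf was found in 17.5% of WT, 13.5% of Tspan12 KO and 35.7% of the Ctnnb1 cKO microglia, and in at most 1.90% of rods. Il1b was found in 10.2, 10.9 and 29.2% of microglia, and in at most 1.27% of rods. Without thinning, Ccl12 was found in 58.9, 53.0 and 70.0% of microglia, Tnf in 31.9, 23.9 and 43.3% and Il1b in 13.8, 16.5 and 35.0%, and Il1a then had a lower share in Ctnnb1 cKO than in WT (50.8 and 61.3%). The unthinned shares of Ccl4 in rods were 8.60, 4.01 and 21.8%. Subtracting the rod level from each microglial level left the same calls as before.

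**Figure D3:**
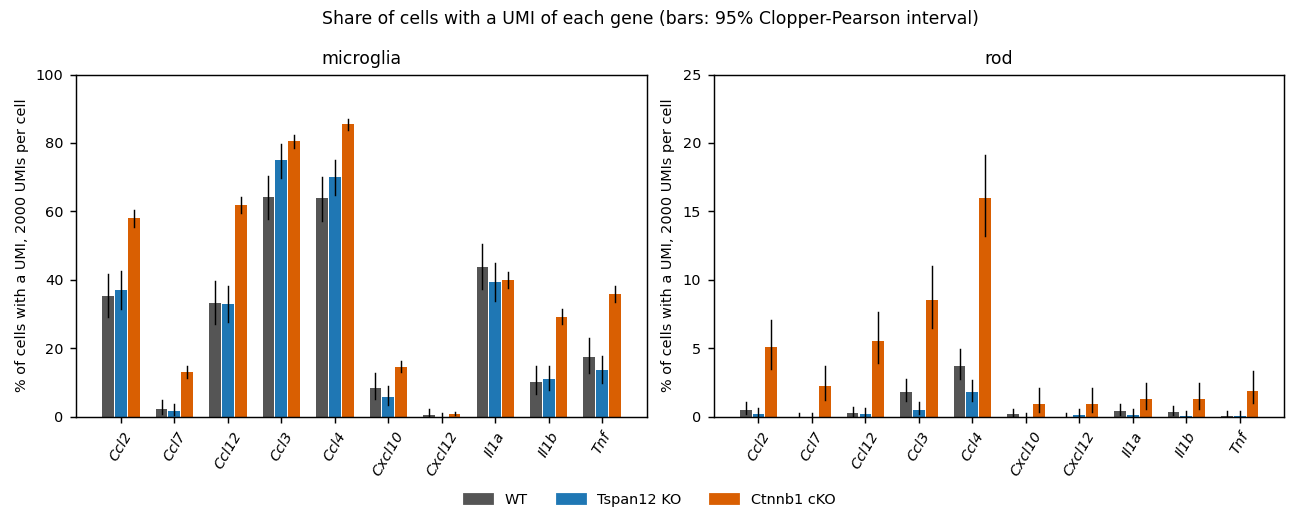
Share of microglia (scale to 100%) and of rods (scale to 25%) with at least 1 UMI of each gene after thinning every cell to 2000 UMIs, by library, with 95% Clopper-Pearson intervals. Ccl4 was found in 63.8% of WT and 85.5% of Ctnnb1 cKO microglia, and in 3.72% and 16.0% of rods.

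Expression was uneven among single microglia. At 2000 UMIs per cell the median Ccl4 count was 2 UMIs in WT, 4 in the Tspan12 KO and 6 in the Ctnnb1 cKO cells, and the highest counts were 48, 63 and 102. The 10% of microglia with most Ccl4 held 48.3, 41.6 and 33.5% of its UMIs. Tnf was the more concentrated, with 80.9, 85.9 and 59.0% of its UMIs in the top 10% of cells. This share can fall as the mean count rises, and the mean of Tnf was 0.379, 0.228 and 0.867 UMIs per cell. Its Fano factor, the variance over the mean, was 3.15, 2.30 and 3.56, so by that measure Tnf was not the most even in Ctnnb1 cKO. A median of 3 of the 10 genes was found per cell in WT and Tspan12 KO and 4 in Ctnnb1 cKO. At least 5 were found in 19.1, 19.3 and 43.7% of cells, and none of the 10 was found in 14.0, 9.97 and 1.80%. These shares, too, include the subcluster led by rod genes, with 101 WT and 24 Ctnnb1 cKO cells before thinning.

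Among 4416 genes, those whose counts followed Ccl4 most closely across thinned microglia were Ccl3 (mean Pearson r over the libraries 0.689), Ccl2 (0.362), Ier3 (0.345), Tnf (0.296), Atf3 (0.262), Zfp36 (0.247), Cd83 (0.246), Egr1 (0.245), Rcan1 (0.237) and Btg2 (0.235). Ccl3 followed Ccl4 in every library (0.718 in WT, 0.722 in the Tspan12 KO and 0.628 in the Ctnnb1 cKO). The value of Btg2 in Ctnnb1 cKO was 0.0501. These r values are descriptions over cells that share a library, from sparse counts. Ier3, Atf3, Zfp36, Egr1 and Btg2 belong to the immediate early genes, which tissue dissociation is known to induce. All of these but Zfp36 are in a fixed list of 16 immediate early genes. Summed over the genes of that list, the microglial level was 20770 CPM in WT, 16670 in the Tspan12 KO and 12960 in the Ctnnb1 cKO. Their part in the levels of the 10 genes was not tested.

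The 10 subclusters of microglia, found by clustering these cells again, showed where each gene was highest. In WT and Tspan12 KO, subcluster 1 (165 and 244 cells) carried the highest Ccl4 of the subclusters read in that library, at 4552 and 3961 CPM. In the same cells Tnf was 315.8 in WT and 112.1 in Tspan12 KO, and Il1a was 691 and 416.5. Within Ctnnb1 cKO, subcluster 2 (397 cells) had the highest Ccl3 (3801), Il1b (626) and Tnf (781.4), and its Ccl4 (5833, 5690 to 5979) could not be told from that of the 27 cells of subcluster 9 (5760, 5321 to 6226). The largest subcluster, 0 (820 cells), had Ccl3 at 2072, Il1b at 325.4, Tnf at 309.3 and Ccl4 at 4347. These Ctnnb1 cKO subclusters did not reach the 3 markers needed for a name of their own and are given by number.

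Cxcl10 was highest in other cells. In subcluster 9, the 27 Ctnnb1 cKO cells led by the interferon-stimulated genes Rsad2, Ifit1 and Ifit3, it stood at 1433 CPM (1218 to 1675), against 145.4 (130.8 to 161.2) in subcluster 0. The same cells had Ccl12 at 3293, Ccl2 at 3084 and Ccl7 at 499 CPM, the highest of these genes in any microglial subcluster, whereas Tnf was at 272.1 (183.6 to 388.5), against 309.3 in subcluster 0. The next highest Cxcl10 levels were in cycling cells led by Top2a and other cell cycle genes, at 366.9 (297.6 to 447.6) in 23 Tspan12 KO cells and 420.1 (384.5 to 458.1) in 220 Ctnnb1 cKO cells. A subcluster of low depth led by rod genes (101 WT, 66 Tspan12 KO and 24 Ctnnb1 cKO cells) had Ccl4 at only 457.6, 215.0 and 457.0. Leaving out the subclusters led by rod genes, 221 cells in all, gave the same calls from summed levels. Shares, counts per cell and means over cells were not read without them. In a subcluster of 61 Ctnnb1 cKO cells led by haemoglobin genes, Ccl12 was low at 228.9.

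Cells of the macrophage and monocyte cluster carried the monocyte-recruiting chemokines at higher levels than microglia. Ccl7 showed the largest gap. It stood at 556 CPM in WT (26 UMIs in 6 cells), 2621 in the Tspan12 KO (22 cells) and 1984 in the Ctnnb1 cKO (397 cells), which was above microglia of the same library by log2 ratios of 4.57 (3.85 to 5.25), 7.06 (6.64 to 7.51) and 4.01 (3.90 to 4.13). Ccl2 was above microglia by 1.78, 1.89 and 1.39, and Ccl12 by 2.13, 1.41 and 0.82. All 9 of these intervals lay above 0. At 2000 UMIs per cell, 71.3% of the 313 Ctnnb1 cKO macrophages had a Ccl7 UMI, against 12.98% of the microglia and 2.22% of the rods, or 71.3, 16.4 and 3.003% without thinning.

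The other genes were not all high in macrophages. Tnf stood at 355 CPM in the Tspan12 KO and 759 in the Ctnnb1 cKO macrophages, above microglia by 1.78 and 0.84, and rested on 3 UMIs in WT. Il1a was low in mutant macrophages, which had 0 UMIs of it in the Tspan12 KO and 58.2 CPM in the Ctnnb1 cKO, where the log2 ratio to microglia was −2.70 (−3.06 to −2.36). Ccl4 in mutant macrophages was below microglia, with log2 ratios of −2.74 in the Tspan12 KO and −0.996 in the Ctnnb1 cKO, whereas in WT it was at 0.16 (−0.04 to 0.36). In WT the 6 cells also carried 4017 CPM of the microglial marker list, against 1006 and 1436 in the mutants. When the 10 genes were allowed into the clustering, the class held 1 WT and 300 Ctnnb1 cKO cells, so the WT macrophage values carry little weight. In those 300 cells Ccl7 stood at 2482 and Ccl2 at 3654.

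In the neutrophil cluster Il1b was the leading cytokine. It stood at 1122 CPM in WT (973.8 to 1286) and 643 in Ctnnb1 cKO (543.4 to 755.1), above the microglia of the same library by 2.97 (2.72 to 3.22) and 0.76 (0.51 to 1.001). It was found in 13 of 22 WT cells at 2000 UMIs (59.1%, 36.4 to 79.3) and 13 of 37 Ctnnb1 cKO cells (35.1%, 20.2 to 52.5), and without thinning in 65.2 and 37.7%. Ccl4 and Ccl3, at 1285 and 817 in WT and 760 and 234.5 in Ctnnb1 cKO, were below the microglia of their library by log2 ratios of −1.61 to −3.31. Cxcl10 was 161 in Ctnnb1 cKO (113.2 to 221.5), where its ratio to microglia, −0.35, had an interval that held 0. The neutrophil markers differed between the cells compared: 6 of 9 were detected in WT with a summed level of 3491 CPM, and 9 of 9 in Ctnnb1 cKO with 40930. Macrophage and monocyte markers in the same cells summed to 8724 and 5603. The WT cells of this cluster thus do not carry a full neutrophil profile, and Il1b is not compared between the libraries there.

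In ECs the first question was which of the 10 genes stood above stray RNA. In WT the interval of the log2 ratio of ECs to rods held 0 for 8 of the 10 genes, in Tspan12 KO for 6 and in Ctnnb1 cKO for 5. Cxcl12 and Cxcl10 were above rods in each library, but only Cxcl12 stood above every neural class read in all 3. Cxcl12 stood at 58.4, 40.9 and 118.6 CPM in ECs and 0.882, 0.893 and 5.38 in rods, a log2 ratio of 6.05, 5.52 and 4.46. Cxcl10 stood at 1.24, 0.778 and 34.0 in ECs and 0.392, 0.0744 and 6.62 in rods, a log2 ratio of 1.67, 3.39 and 2.36, of which the WT and Tspan12 KO values rest on 20 and 5 UMIs in ECs. Progenitors had more Cxcl10 than ECs in WT and Tspan12 KO (1.52 and 1.19 CPM), whereas in Ctnnb1 cKO the highest neural level was 13.5, in amacrine cells. Ccl4, Ccl3 and Il1a in Ctnnb1 cKO and Ccl4 and Ccl12 in Tspan12 KO were below rods.

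**Figure D4:**
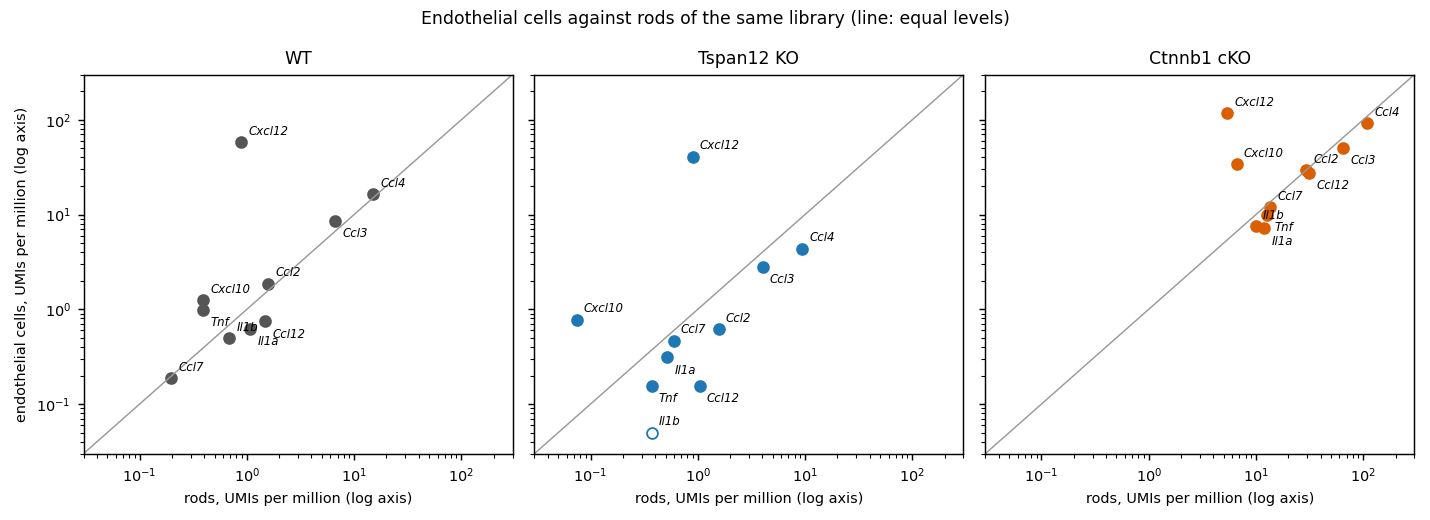
Level of each gene in ECs (vertical, CPM, log axis) against rods of the same library (horizontal, log axis), with the line of equal levels. Most genes lie along the line, Cxcl12 lies far above it in each library, and Cxcl10 is clearly above it in Ctnnb1 cKO at 34.0 against 6.62. The open circle marks a gene with 0 UMIs in ECs.

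In Ctnnb1 cKO ECs all 10 genes were called higher than in WT, beside 8.42% of the 12804 genes read called higher and 12.4% called lower. The log2 ratios ran from 1.02 for Cxcl12 (0.90 to 1.14) to 5.99 for Ccl7 (4.42 to 8.29), with Cxcl10 at 4.78 (4.13 to 5.50) and a median of 3.72, against −0.12 over all genes. For the 8 other than Cxcl12 and Cxcl10, ECs did not stand above rods of the same library: Ccl4 was 91.5 CPM in Ctnnb1 cKO ECs and 109 in rods, Ccl3 50.4 and 65.2, and Ccl2 29.1 and 29.4. Once the rod level was subtracted, 2 genes, Cxcl10 and Cxcl12, were left with a level above 0 in both libraries. The others could not be read as a ratio, and Cxcl10 remained the only call. Markers of other classes moved with these genes: in ECs the microglial list went from 79.6 CPM in WT to 158.7 in Ctnnb1 cKO, the macrophage and monocyte list from 11.3 to 69.8 and the neutrophil list from 7.33 to 26.9. Per 100 UMIs of microglial markers in Ctnnb1 cKO, Ccl4 had 57.6 UMIs in ECs, 63.9 in rods and 89.2 in microglia, whereas Cxcl10 had 21.4, 3.90 and 4.41 and Cxcl12 had 74.7, 3.17 and 0.0692.

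Cxcl12 was less firmly placed past 2-fold. Its call in Ctnnb1 cKO was lost when doublets were kept, when the 1% of cells with most UMIs of the gene were left out, without a subcluster of 121 cells led by photoreceptor genes, after thinning and after subtraction of the rod level, though its log2 ratio was 0.63 or more in each setting. At 2000 UMIs per cell, Cxcl12 was found in 52 of 520 WT ECs, 5.73% of Tspan12 KO ECs and 10.9% of Ctnnb1 cKO ECs, so the share did not differ between WT and Ctnnb1 cKO by more than its interval (7.56 to 12.9% and 9.49 to 12.4%). Cxcl10 was found in 1 of 520 WT cells, 1 of 262 Tspan12 KO cells and 3.55% of 1888 Ctnnb1 cKO cells (2.76 to 4.49), the last above the 0.951% of rods (0.350 to 2.06). The cells left out of these shares were 17, 29 and 825, and the unthinned median depths of ECs were 15792, 14561 and 3347 UMIs. Without thinning, Cxcl12 was found in 20.3, 12.4 and 15.7% of ECs and Cxcl10 in 3.17, 1.72 and 7.56%.

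In Tspan12 KO ECs only 3 of the 10 genes had enough UMIs. Ccl4 and Ccl3 were called lower, with log2 ratios of −1.92 (−2.54 to −1.35) and −1.60 (−2.40 to −0.89), beside 4.09% of the 12206 genes read called lower and 2.17% called higher. Both stood near or below the rod level of their library (4.36 and 2.80 in ECs, 9.37 and 4.02 in rods). No call was left when cells counted equally. None was left after thinning or after the rod level was subtracted, but only 1 gene could be read in each. Those settings could therefore not have kept both calls. Cxcl12 was below WT at −0.51 (−0.71 to −0.31), short of the call. Its size depended on the cells taken: it was −1.15 when the 1% of cells with most UMIs of the gene were left out and −2.49 when cells were taken by a gate on endothelial markers (1171 WT and 869 Tspan12 KO cells), both past 2-fold. The gate asks for 3 markers and took more cells than the 537 and 291 ECs of the clusters. It thus holds cells that were not clustered as ECs.

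Cxcl12 varied widely between endothelial subclusters. Subclusters were named only where arterial, venous, tip or proliferative markers allowed it. In Ctnnb1 cKO the arterial-like subcluster (262 cells) had Cxcl12 at 716 CPM (654 to 783), against 166 (153 to 181) in the largest subcluster of that library and 23.6 in the next. In the venous-like subcluster it stood at 122 in WT (297 cells, 114 to 130) and 257 in Tspan12 KO (62 cells, 226 to 292), and in the proliferative-like subcluster 5 at 9.09 in WT and 3.14 in Tspan12 KO. The direction therefore turned with the subcluster: the log2 ratio of Tspan12 KO to WT was 1.08 (0.87 to 1.29) in the venous-like cells and −1.54 (−2.59 to −0.62) in subcluster 5, beside −0.51 over all ECs. The summed difference in Tspan12 KO and the make-up of its ECs cannot be told apart. WT and Ctnnb1 cKO ECs shared no subcluster with 50 or more cells of each, so the same holds for that comparison.

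Cxcl10 in Ctnnb1 cKO ECs followed another division. It stood at 38.2 CPM in subcluster 0, 50.1 in subcluster 1, 38.3 in the proliferative-like subcluster 4 and 26.6 (15.8 to 42.1) in the arterial-like subcluster 6, but at 4.02 (1.47 to 8.75) in subcluster 3 and 4.99 (1.62 to 11.7) in subcluster 7. Summed over a fixed list of 17 interferon-stimulated genes, the first 4 had 3965 to 6538 CPM, and subclusters 3 and 7 had 1173 and 1161. The WT subclusters 2 and 5 had 1097 and 866.5, with Cxcl10 at 0.430 and 1.84.

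**Figure D5:**
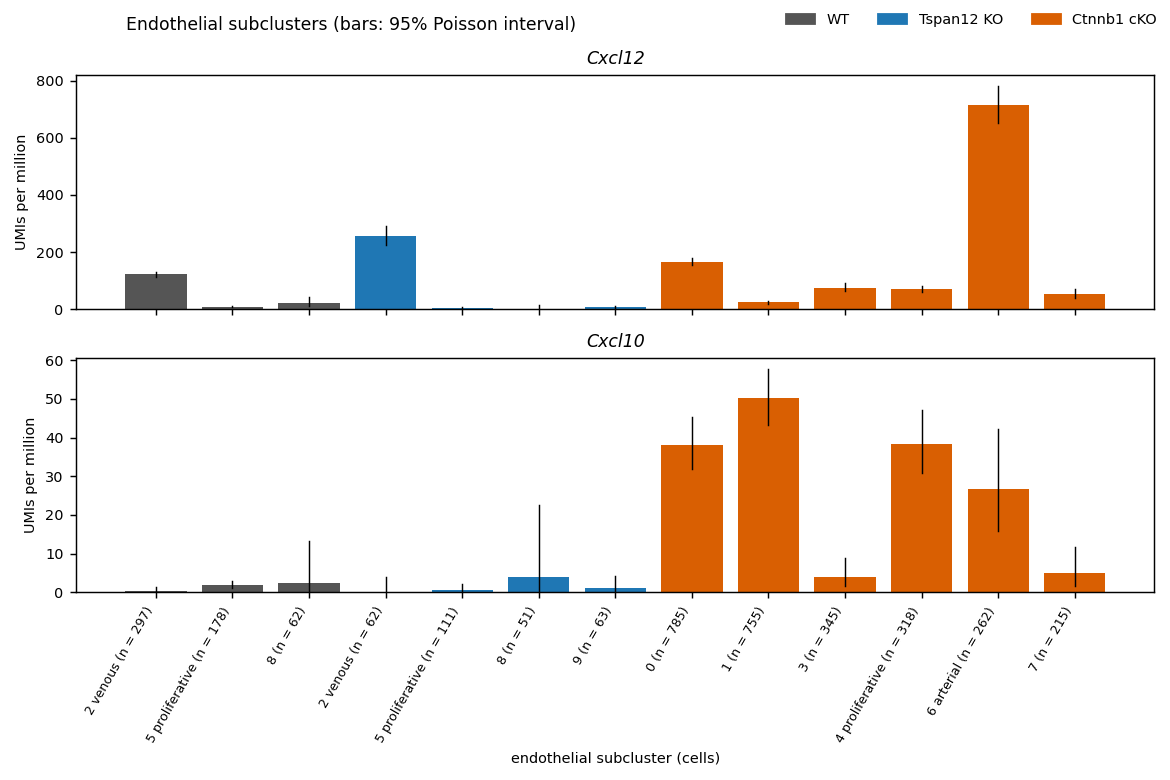
Cxcl12 and Cxcl10 in CPM in each endothelial subcluster with at least 50 cells of a library, with 95% Poisson intervals and the number of cells. Cxcl12 reached 716 in the arterial-like subcluster of Ctnnb1 cKO, and Cxcl10 exceeded 26 in subclusters 0, 1, 4 and 6 of Ctnnb1 cKO and stayed below 5 in its subclusters 3 and 7.

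Outside these classes, Cxcl12 was also found in astrocytes, at 272 CPM in WT (21 cells, 200 to 361), 209 in the Tspan12 KO (48 cells, 174 to 249.4) and 718 in the Ctnnb1 cKO (21 cells, 503 to 994). Cxcl10 in astrocytes was 231 in WT, from 40 UMIs in 21 cells, with 2 UMIs in the Tspan12 KO and 0 in the Ctnnb1 cKO. In the last, the floor of 3 counts stands at 59.9 CPM. Retinal astrocytes form the template on which vessels grow, and these values rest on few cells. In mural cells, which coat the vessels, Cxcl12 was 3.41, 19.2 and 43.9.

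The receptors of these ligands were spread over several classes. Ccr1, a receptor of Ccl3, stood at 363, 282 and 203 CPM in macrophages and below 10 in microglia. Ccr2, the receptor of Ccl2, Ccl7 and Ccl12, was at 54.5 in WT (10 UMIs) and 30.4 in Ctnnb1 cKO (7 UMIs) cells of the neutrophil cluster. Macrophage and monocyte markers summed to 8724 and 5603 CPM in those cells, so Ccr2 is not assigned to neutrophils. In microglia Ccr2 was at 1.13, 0.377 and 0.559, with a single UMI in macrophages. Cxcr3, the receptor of Cxcl10, had no more than 8 UMIs in any of the 13 classes of any library. Cxcr4, the receptor of Cxcl12, stood at 25.1 in WT, 53.7 in the Tspan12 KO and 50.1 in the Ctnnb1 cKO ECs, called higher in Tspan12 KO at 1.10 (0.89 to 1.31) and just short of the call in Ctnnb1 cKO at 0.9993. Ackr3, which removes Cxcl12, stayed between 6.67 and 7.94 in ECs.

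For the cytokines, Tnfrsf1a, the widespread Tnf receptor, stood at 76.8, 106 and 96.3 CPM in ECs and 83.8, 77.7 and 71.1 in microglia. Tnfrsf1b, the Tnf receptor of immune cells, stood at 75.5, 73.6 and 115 in microglia. Il1r1, the signalling receptor of interleukin-1, stood at 11.8, 12.5 and 8.76 in ECs. Il1r2, its decoy, was at 43.6 in WT and 56.5 in Ctnnb1 cKO cells of the neutrophil cluster. Il1rn, the secreted antagonist of interleukin-1, stood at 9.05, 3.40 and 19.0 in microglia and was called higher in Ctnnb1 cKO at 1.07.

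Other genes of these pathways were read from gene lists. In Tspan12 KO microglia 0 of 6 measured chemokine ligands outside the 10 were called higher and 1 lower: Cxcl2, a neutrophil chemoattractant, at −3.17, from 370 UMIs in WT and 41 in Tspan12 KO. Of 14 measured NF-κB response genes 1 was called lower, Nfkb1 at −1.10, with a list median of −0.56, and Nfkbia at −0.87 was not called. Of 15 immediate early genes 2 were called lower, Hspa1a at −2.16 and Nr4a1 at −1.05. Of 5 measured interferon-stimulated genes 2 were called lower, Ifitm3 at −2.05 (28 UMIs in Tspan12 KO, 116 in WT) and Isg15 at −1.41 (15 and 40). Endothelial markers in these microglia summed to 172.8 CPM in WT and 88.7 in Tspan12 KO. The interferon-stimulated list summed to 255.4 and 232.6 CPM in subcluster 1, and to 682.7 and 252.1 in the subcluster led by rod genes. The part of RNA from other cells in these ratios was not tested. None of the 3 chemokine receptors, 6 interleukin-1 pathway genes, 6 Tnf pathway genes and 4 other cytokines measured was called.

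In Ctnnb1 cKO microglia 13 of 15 measured interferon-stimulated genes were called higher and none lower, with a median of 2.03, against 0.06 over all genes. Ifit1, which binds viral RNA, was at 3.74, Oasl2 at 3.66 and Ifitm3 at 3.05, and Isg15 at 0.97 was not called. The summed level of the list was 320 CPM in WT and 1195 in Ctnnb1 cKO microglia, and it was also higher in rods, 36.9 and 347. All 13 stood above the rods of their library, and 12 were past 2-fold once the rod level was subtracted, all but Ifit3 at 0.85. In the same microglia endothelial markers summed to 173 CPM in WT and 381 in Ctnnb1 cKO, and microglial markers to 8226 and 4643. Ifit1 was 10.1 CPM in Ctnnb1 cKO microglia and 81.5 in ECs, and Ifitm3 was 363 and 2567. The part of RNA from ECs in these ratios was not tested. The NF-κB list had 4 of 15 called lower and none higher, Nfkb1 (−1.33), Nfkbia (−1.29) and Rel (−1.24) among them, and the immediate early list had 3 of 15 called lower. Of 9 other chemokine ligands 3 were called higher, Pf4 (3.94), Ccl5 (3.49) and Cxcl14 (3.02), and 3 lower, Ccl9 (−1.83), Cxcl2 (−1.51) and Ccl6 (−1.21). Ccl5 and Cxcl14 stood above rods, whereas Pf4 did not (52.0 CPM in microglia, 45.5 in rods). All 3 were past 2-fold once the rod level was subtracted, but for Pf4 that value rests on a level not told apart from rods and decides nothing. Of the 6 receptors 3 were higher, Cxcr4 (2.94), Ccrl2 (1.05) and the fractalkine receptor Cx3cr1 (1.02). Ccrl2 and Cx3cr1 stood above rods, whereas Cxcr4 did not (11.6 CPM in microglia, 8.27 in rods). Once the rod level was subtracted 2 of the 3 were past 2-fold, all but Cx3cr1 at 0.98. For Cxcr4 the subtraction decides nothing, because its level was not told apart from rods in Ctnnb1 cKO. In WT it was 1.51 CPM in microglia, from 4 UMIs, and 1.08 in rods. Of 8 interleukin-1 pathway genes 2 were higher, Il18bp (3.45) and Il1rn, and 1 lower, Il1rap (−1.10). No Tnf pathway gene of 6 was called, and 1 of 5 other cytokines was called higher, Il12b, with 99 UMIs against 0 in WT.

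In ECs the genes called higher were set beside the rods of the same library. In Ctnnb1 cKO ECs 16 of 16 measured interferon-stimulated genes were called higher, with a median of 3.23 and Ifit3 at 7.80. The summed level of that list was 974 in WT, 887 in the Tspan12 KO and 4132 in the Ctnnb1 cKO ECs, and 36.9, 21.4 and 347 in rods. Of the 16, all but Ifi27l2a (24.6 CPM in ECs, 29.2 in rods) stood above rods. Of 9 other chemokine ligands 6 were called higher and 2 lower. Those above rods were Ccl5 (41.2 CPM in ECs, 5.998 in rods), Cx3cl1 (33.0 and 1.45) and Cxcl9 (7.13 and 0.207), whereas Pf4 (39.1 and 45.5), Ccl6 (4.34 and 5.998) and Cxcl16 (8.22 and 7.65) were not. Cxcl9, like Cxcl10 a ligand of Cxcr3, was at 6.84 (4.33 to 12.16, 92 UMIs against 1), and Ccl5 at 6.79 (532 against 6). The neutrophil chemoattractants Cxcl2 (−2.15) and Cxcl1 (−1.97) were lower. Called higher too were 2 of 6 chemokine receptors, Cx3cr1 (2.25) and Ccrl2 (1.17), 2 of 6 interleukin-1 pathway genes, Il18bp (3.19) and Nlrp3 (2.16), and Csf1 (1.54) of 4 other cytokines. Of these Ccrl2, Il18bp and Csf1 stood above rods. Cx3cr1 (100.4 CPM in ECs, 109 in rods, 3014 in microglia) and Nlrp3 (3.33, 4.76 and 210.0) did not. NF-κB response genes went both ways, with 2 higher, Gpr84 (1.68) and Cd83 (1.14), neither above rods, and 2 lower, Nfkbid (−1.54) and Tnfaip3 (−1.04), of 15, and no Tnf pathway or immediate early gene was called. In Tspan12 KO ECs Cxcl2 (−4.46) and Cxcl1 (−3.21) were called lower as well, and Cx3cl1, the membrane-bound fractalkine, was called higher at 1.03. Cxcr4 was 1 of 6 receptors called higher and Cx3cr1 (−1.15) the one called lower, and of 4 other cytokines Il16 was called higher at 1.04. Cx3cr1 stood at 9.49 CPM in Tspan12 KO and 21.1 in WT ECs, beside 2043 and 1484 in microglia. In these lists genes called lower were not set beside rods, so the part of stray RNA in the Cx3cr1 call was not tested. Of 14 immediate early and 14 NF-κB response genes there, 3 and 3 were called lower, Atf3 (−2.15) and Nfkbid (−1.92) with the lowest ratios, and none of 13 interferon-stimulated, 6 Tnf pathway or 4 interleukin-1 pathway genes was called.

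Across 28 sums of a cell class in a library, the genes with the profile most like each member were found among 17273 genes by Pearson correlation of log2 levels. The closest to Ccl3 and Ccl4 were the complement genes C1qa (0.994) and C1qc (0.994). The closest to Il1a was the microglial gene Tmem119 (0.992), to Il1b Tifab (0.991) and to Tnf Fcgr1 (0.984). Ccl2 was closest to Tnf (0.979), Ccl12 to Gm38843 (0.983), Ccl7 to Ifi207 (0.957), Cxcl10 to Cd300c2 (0.967) and Cxcl12 to Shank3 (0.964). These sums share libraries, depth and stray RNA, and the values are given as descriptions.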

How the data were processed

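Retinal cells of 1 library per genotype (WT, Tspan12 KO and Ctnnb1 cKO) were sequenced with Chromium Single cell 3′ kits, v3 per the labels and a later release of v3 in the methods. The deposited files hold UMI counts per gene and barcode, the output of the Cell Ranger pipeline as the authors ran it. The matrix headers name version 8.0.1 and the submitters' processing notes GRCm39, whereas the methods name another version and an mm10 reference, so no gene coordinates were taken from the files and promoters carry the build of their own table. The counts of a 3′ kit do not depend on transcript length.

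Barcodes with under 250 genes, under 500 UMIs or over 15% mitochondrial UMIs were removed, and 760 (WT), 1656 (Tspan12 KO) and 665 (Ctnnb1 cKO) cells were taken out as likely doublets by simulated doublet scores. The automatic threshold of Scrublet had called 0, 1 and 323. Cells were clustered with scanpy 1.11.5 and leidenalg 0.10.2 (2000 variable genes, 30 components, 20 neighbours, resolution 1) after 85 ligand, receptor and cytokine genes had been left out, and classes were named from marker lists. Unnamed clusters held 2435, 3828 and 173 cells.

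UMIs were summed per class and library with numpy 2.4.6, and divided by the sum of the class. Intervals (scipy 1.17.1) are exact Poisson for levels, exact conditional binomial for ratios and exact Clopper-Pearson for shares, all at 95% and for counting error only. A floor stands for 3 counts. No test across samples was possible, and edgeR 4.0.16 gave scaling factors of the trimmed mean of M values only. The ratio script was tested on simulated data. The alternatives tried were another scaling, doublets kept, the members among the variable genes, a finer clustering, stricter cell filters, a gate on markers, means over cells, thinning, subtraction of the rod level, the top 1% of cells left out and other minimum counts. Those that leave out subclusters or keep only cluster 20 were chosen after seeing the data.

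Named genes were the 10 members, their receptors and the interleukin-1 antagonist, in each list the 3 genes with the largest rise and fall, and the genes most alike in profile (for Ccl4 also the 10 most alike over cells, and for each member the closest of 3). The values of 1 receptor are not reported here. The members and lists were chosen with earlier results of these data known.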

Additional observations from a re-analysis of the deposited data

How the results depend on the processing

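In Tspan12 KO microglia the 1 call became 2 with a gate on markers (Ccl7 and Tnf) and 2 within cluster 20 (Tnf and Cxcl10), and 0 when every cell counted equally. In Ctnnb1 cKO microglia the 3 calls became 5 with the marker gate and 6 when every cell counted equally, and within cluster 20 there was 1, Cxcl10, which was not among the 3. There Ccl7 reversed to −0.64 on 2 UMIs in 17 cells. In Tspan12 KO endothelial cells the 2 calls became 0 when every cell counted equally, 0 after thinning (1 gene read) and 0 after subtraction of the rod level (1 gene read), and 3, with Cxcl12, by the marker gate and without the top 1% of cells. In Ctnnb1 cKO endothelial cells the 10 calls became 5 after thinning (6 genes read) and 1 after subtraction of the rod level (2 genes read). The cause was not tested. Scaling by the trimmed mean of M values moved the log2 ratios of Ctnnb1 cKO endothelial cells by 0.145, with the same calls. Of the 120 levels in the 4 classes, 98 stayed inside their interval when the members were used in clustering, and 16 of the 22 others were in macrophages. Over all settings the sign was kept for 99 of 108 and 101 of 108 microglial ratios (Tspan12 KO and Ctnnb1 cKO), and for 31 of 31 and 98 of 98 endothelial ones. Within the venous-like subcluster, not among these settings, Cxcl12 in Tspan12 KO turned to 1.08. The share count of 8 genes was 7 at 1000 UMIs per cell. No paired analysis was possible because each genotype has 1 library. Small classes limit precision, such as 6 WT macrophages, 2 Tspan12 KO cells of the neutrophil cluster and 17 Ctnnb1 cKO cells of cluster 20.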
